A study of Homo sapiens with 4 samples.

Results

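The 39 *HOX* genes of the clusters *HOXA* (11 genes), *HOXB* (10), *HOXC* (9), and *HOXD* (9) were followed through RNA sequencing of BT-16 and CHLA-266, a pair of established cell lines of the MYC group of atypical teratoid/rhabdoid tumor (AT/RT-MYC), a childhood brain tumor that lacks functional SMARCB1. Membership was set by the gene symbol alone, although the clusters were picked with earlier results of these data known, and all 39 members were found among the 18449 symbols of the count table. Untreated cells of each line were compared with treated cells of the same line, which had received 1 µM doxorubicin, 5 µM etoposide, and 1 µM vincristine on consecutive days and were harvested from the cells that grew again some weeks later. Doxorubicin and etoposide block topoisomerase II, and vincristine blocks the assembly of microtubules. Each line and condition had 1 library, which gave 4 libraries in all, 2 untreated and 2 treated. Most cells died under the treatment, so the treated libraries came from survivors and their offspring.

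*HOX* genes code for homeodomain transcription factors that give cells their position along the head to tail axis. The clusters on chromosomes 7 (*HOXA*), 17 (*HOXB*), 12 (*HOXC*), and 2 (*HOXD*) arose by duplication, and genes at the same place in different clusters form paralog groups numbered 1 to 13. In the embryo, genes with low numbers are expressed from the hindbrain on and genes with high numbers in the posterior trunk and limbs, while forebrain and midbrain express almost none. Retinoic acid and trithorax proteins activate the clusters, Polycomb proteins keep them silent, and TALE homeodomain proteins of the PBX and MEIS families bind DNA together with HOX proteins. High expression of *MYC* and of *HOXC* genes is a known trait of AT/RT-MYC.

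The libraries held 49849257 to 75087193 counts, and the treated library was the shallower one in each line. BT-16 cells had 933 *HOX* counts before and 1999 after treatment, and CHLA-266 cells had 546 and 1114, so that they took 8.25 to 38.8 of every 1000000 counts. Most members were therefore measured with few reads, and 0 counts in a library still allow up to 3 counts there, from counting error only. Genes with at least 1 count numbered 16079 before and 17815 after treatment of BT-16 and 15464 and 17114 for CHLA-266. *MYC* was abundant in every library, at 118 to 207 CPM (counts scaled to 1000000 per library, with TMM normalization), and *SMARCB1*, the gene lost in AT/RT, was still counted at 15.9 to 21.3 CPM. The proliferation markers *MKI67* and *TOP2A* summed to 2721 and 2730 CPM in untreated and to 59.1 and 61.8 CPM in treated cells. Fewer cells of a type and less RNA per cell cannot be told apart in such bulk samples.

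In untreated cells, most *HOX* RNA came from 4 genes. *HOXC9*, *HOXA5*, *HOXC13*, and *HOXB4* were the 4 highest members in both lines, in this order, and together held 80.01% of the summed *HOX* level in BT-16 and 74.0% in CHLA-266 cells. Levels were compared between genes as CPM per kilobase of exon. The other 35 genes summed to a level of 1.37 in BT-16 and 1.18 in CHLA-266 cells, below that of *HOXC9* alone, as the map by cluster and paralog group shows.

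**Figure D1:**
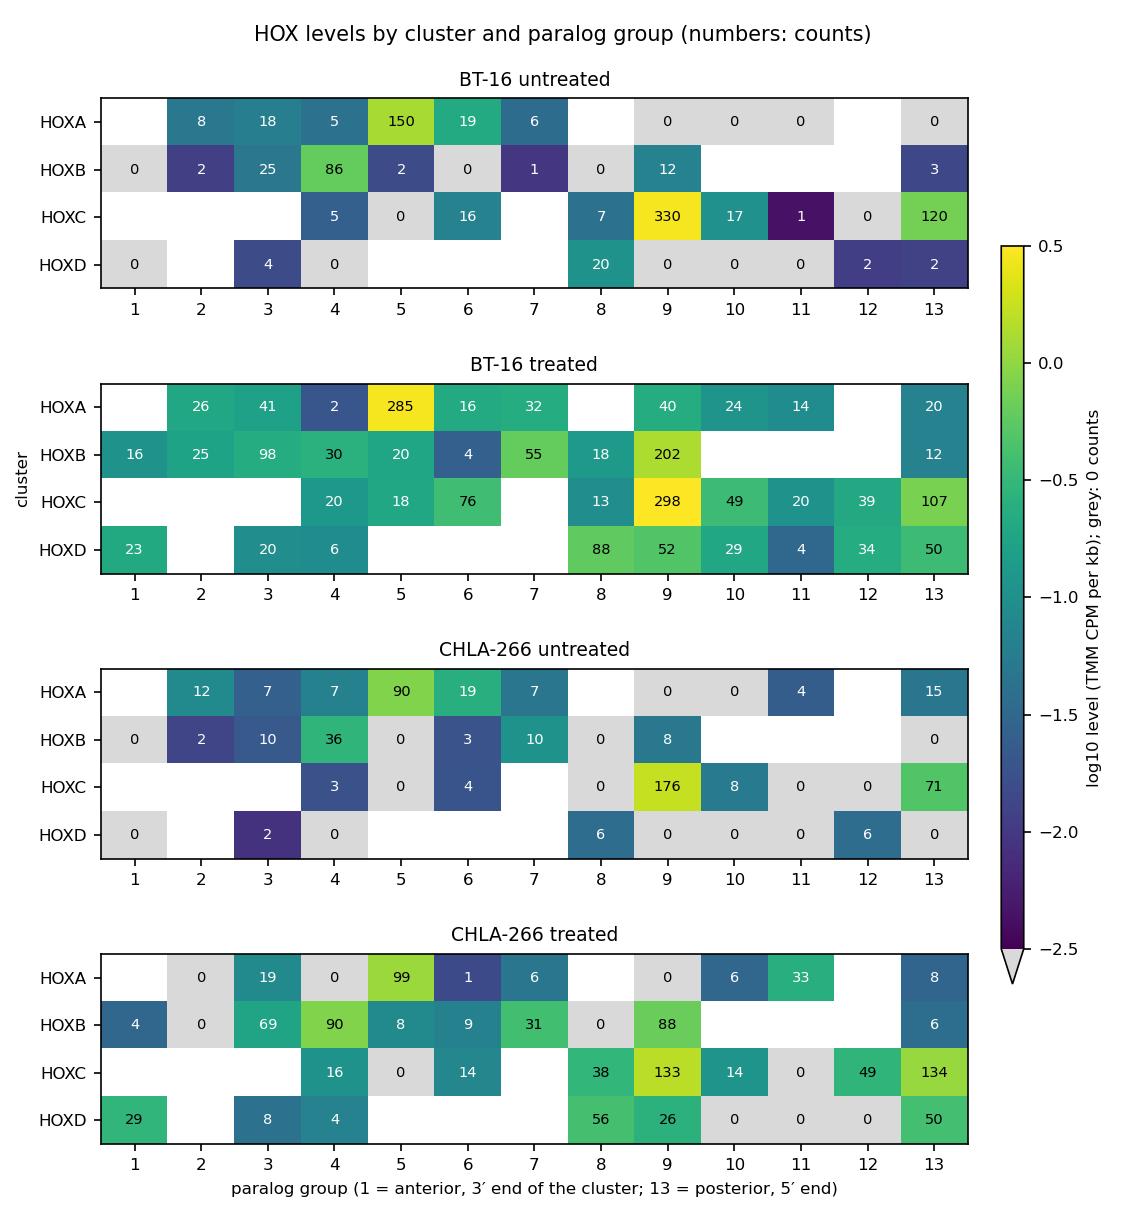
Levels of 38 *HOX* genes in the 4 libraries, with the cluster on the vertical axis, the paralog group on the horizontal axis, the color giving log10 of the level (TMM CPM per kilobase of exon), and the printed number the count of each gene. Grey marks genes with 0 counts (14, 0, 16, and 10 genes from top to bottom), white marks paralog groups that the cluster lacks or that are not shown, and *HOXC9* is the brightest cell of each map.

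*HOXC9*, a gene of the lower thoracic region in the embryo (chr12:53994895-54003337, plus strand, hg38 with GENCODE 44), had 330 counts before and 298 after treatment of BT-16, and CHLA-266 gave 176 and 133. Its levels of 2.87, 3.09, 1.72, and 1.54 were the highest among the *HOX* genes of each library. Even so, they lay above only 51.1% to 60.5% of all genes with an exon length. *HOXA5*, a regulator of respiratory and cervical development (chr7:27141052-27143681, minus strand), had 150, 285, 90, and 99 counts in the same order of libraries. *HOXC13*, best known for its role in hair and nails (chr12:53938831-53946544, plus strand), had 120, 107, 71, and 134 counts, and *HOXB4*, a regulator of hematopoietic stem cells (chr17:48575507-48578350, minus strand), had 86, 30, 36, and 90 counts. In untreated cells, each of these 4 genes thus had its higher count in BT-16, the deeper library.

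At a level of at least 1, only *HOXC9* and *HOXA5* counted as expressed in untreated BT-16 and only *HOXC9* in untreated CHLA-266 cells. After treatment, 3 genes reached this level in each line: *HOXC9* and *HOXA5* in both, with *HOXB9* in BT-16 and *HOXC13* in CHLA-266. The median level of all genes was 1.36 to 1.64. Across the 39 genes, Spearman's rho was 0.758 between the untreated libraries and 0.615 between the treated ones, and Pearson's r on the log2 scale was 0.962 and 0.766. These values describe genes that share a library and many zeros, and genes are not independent replicates.

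Among the clusters, *HOXC* held the largest share of the summed level in each library, from 56.1% before to 34.5% after treatment of BT-16 and from 50.8% to 37.6% for CHLA-266. *HOXD* was at the bottom of untreated cells with 2.17% and 1.85%, and had 14.7% and 15.8% in treated cells. The *HOXB* share of BT-16 was 11.5% before and 20.5% after treatment, and that of CHLA-266 was 11.1% and 24.7%. *HOXA* stayed at 30.2% and 30.3% in BT-16, while CHLA-266 had 36.3% and 21.9%. In both lines the treated cells thus had their *HOX* RNA spread more evenly over the clusters. By position, paralog groups 9 to 13 held 55.6% and 50.2% of the summed level of BT-16 and 53.5% and 50.1% of that of CHLA-266, groups 4 to 8 held 35.7% to 38.9%, and groups 1 to 3 held 8.69% to 12.1%. The order of these position groups was the same in all 4 libraries, but the groups hold 16, 15, and 8 genes. *HOXC9* alone held 41.8% and 20.0% of the summed level in untreated and treated BT-16, and 37.9% and 16.4% in CHLA-266 cells. In each library this was more than the lead of groups 9 to 13 over groups 4 to 8. With 1 library per line and condition, these shares have no replicate error.

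After treatment, 7 of the 39 *HOX* genes were upregulated and none was downregulated (edgeR quasi-likelihood test over 18066 genes, adjusted p under 0.05, 2 against 2 libraries). The 7 genes were *HOXB3*, *HOXB9*, *HOXC12*, *HOXD1*, *HOXD8*, *HOXD9*, and *HOXD13*. Across all genes, 16.1% were called higher and 19.1% lower (24.1% and 10.5% with upper-quartile normalization), so the 17.9% of *HOX* genes called higher is close to the background. At an unadjusted p under 0.05 there were 9 *HOX* genes (23.1%), all of them higher, against 47.1% of all genes in either direction and 23.8% higher. DESeq2 also called 0 *HOX* genes lower (19.3% of all genes). By cluster, 4 of 9 *HOXD*, 2 of 10 *HOXB*, 1 of 9 *HOXC*, and 0 of 11 *HOXA* genes were called. No *HOXA* gene was called in edgeR with all libraries, and 1 (*HOXA10*) had an unadjusted p under 0.05. DESeq2, which called 22.5% of all genes higher, called *HOXA10*, but not with the line in the model. By position, the calls fell on 2 of 8 genes of paralog groups 1 to 3, 1 of 15 of groups 4 to 8, and 4 of 16 of groups 9 to 13. A model that also held the cell line left 6 of the 7 calls (17.9% of all genes were called higher in it), with *HOXD1* at an adjusted p of 0.0599 in edgeR, while DESeq2 with the line in the model called all 7 (and 20.1% of all genes higher and 19.2% lower).

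The fitted log2 fold change was positive for 37 of 39 members, and *HOXA4* and *HOXA6* were the exceptions. It was positive for 57.3% of all genes and for 94.0% of the olfactory receptor genes, a family measured with few reads, and for the 11 *HOX* genes with 0 counts in both untreated libraries the sign was fixed. Its median over the 39 genes was 2.74, against 0.24 over all genes and 4.16 over the olfactory receptors. With the 11 genes that had 0 counts in both untreated libraries placed at their lower bound, where 3 counts would have allowed one, it was 2.39, against 0.22 over all genes and 2.14 over the olfactory receptors treated alike. Both treated libraries lay above both untreated ones for 24 *HOX* genes (61.5%, against 40.2% of all genes and 48.8% of the olfactory receptors) and below them for 1, *HOXA4* (against 32.3% of all genes). Treated cells were higher in each line for 25 *HOX* genes (64.1%, against 44.7% of all genes). The 4 genes that led in untreated cells were not called. *HOXC9* had a log2 fold change of 0.01 (SE 0.48, adjusted p = 0.983 in edgeR), and its libraries were ordered by line rather than by condition. *HOXA5* had 0.91 (SE 0.57, adjusted p = 0.236 in edgeR).

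**Figure D2:**
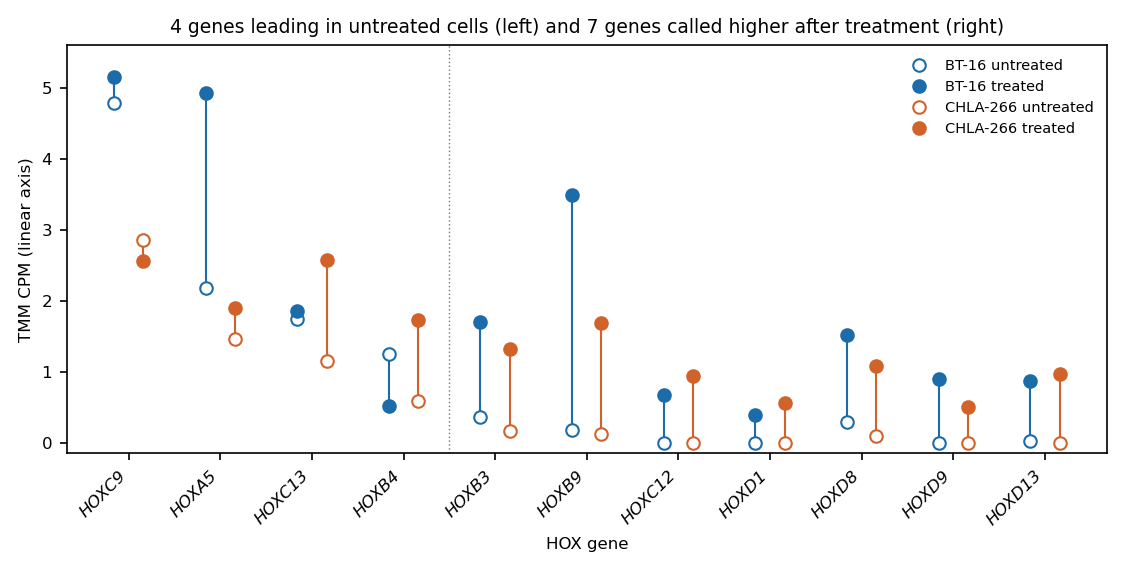
TMM-normalized CPM (linear axis) of the 4 genes that led in untreated cells and the 7 genes called higher after treatment, with open points for untreated and filled points for treated cells of BT-16 (blue) and CHLA-266 (orange). *HOXC9* stays near its untreated value in both lines, while each of the 7 called genes is higher in both treated libraries.

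*HOXB9* had the smallest adjusted p of all members. This gene of the thoracic region (chr17:48621156-48626358, minus strand) had 12 counts before and 202 after treatment of BT-16, and 8 and 88 for CHLA-266. The log2 fold change of 4.07 (SE 0.74, adjusted p = 0.0041 in edgeR) came with both treated libraries far above both untreated ones. *HOXB3*, an anterior gene with a role in the hindbrain (chr17:48548870-48604912, minus strand), had 25, 98, 10, and 69 counts, again without overlap between the conditions. Its log2 fold change was 2.51 (SE 0.81, adjusted p = 0.0403 in edgeR), but the call was lost when the treated BT-16, the untreated CHLA-266, or the treated CHLA-266 library was left out (adjusted p of 0.133, 0.118, and 0.0826 in edgeR). *HOXB3* shares 11.7% of its exon length with *HOXB4*, *HOXB6*, and antisense genes.

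*HOXC12*, a posterior gene (chr12:53954903-53958956, plus strand), was the only member of its cluster that was called. It had no count before treatment in either line and 39 and 49 counts after it, in BT-16 and CHLA-266. With 3 counts as the floor of each untreated library and the treated counts taken as exact, it was 17.5-fold higher in treated cells (adjusted p = 0.0103 in edgeR). With counting error in both libraries, its intervals began at a log2 ratio of 3.59 in BT-16 and 3.92 in CHLA-266. With halved counts they began at 2.56 and 2.83. Its levels of 0.207 and 0.289 in treated cells stayed far below those of *HOXC9*.

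Of the *HOXD* genes, which pattern the posterior trunk, limbs, and genital region, 5 had 0 counts in both untreated libraries. *HOXD9* (chr2:176122719-176124937, plus strand) had 0, 52, 0, and 26 counts. In treated cells it was 15.2-fold above the same floor of 3 counts (adjusted p = 0.0147 in edgeR). Its counting intervals began at a log2 ratio of 4.02 in BT-16 and 2.96 in CHLA-266. *HOXD13*, the gene at the posterior end of the cluster that shapes fingers and toes (chr2:176092721-176095944), had 2, 50, 0, and 50 counts. Its log2 fold change was 5.74 (SE 1.45, adjusted p = 0.0162 in edgeR). In BT-16 its log2 ratio of 4.59 had a counting interval of 2.97 to 7.98. In CHLA-266 the gene was 19.7-fold above the floor, with an interval that began at a log2 ratio of 3.95. Without the treated CHLA-266 library its adjusted p was 0.051 in edgeR.

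*HOXD1*, the gene at the anterior end (chr2:176188668-176190907), had 0, 23, 0, and 29 counts. In treated cells it was 10.4-fold above the floor of 3 counts (adjusted p = 0.0325 in edgeR). Its counting intervals began at a log2 ratio of 2.78 in BT-16 and 3.13 in CHLA-266. Its call was lost without either untreated library or without treated CHLA-266 cells (adjusted p of 0.0655 to 0.124 in edgeR). *HOXD8*, the member of the cluster with the highest mean level (chr2:176129694-176132695), had 20, 88, 6, and 56 counts and a log2 fold change of 2.73 (SE 0.91, adjusted p = 0.0461 in edgeR). It was not called when treated BT-16, untreated CHLA-266, or treated CHLA-266 cells were left out (adjusted p of 0.0811 to 0.166 in edgeR). The exons of *HOXD1* overlap genes on the opposite strand over 60.1% of their length (*HAGLR* among them), and those of *HOXD8* over 24.4% (*HOXD-AS2*), whereas *HOXD9*, *HOXD13*, *HOXC12*, and *HOXB9* overlap none. The kit kept the strand, but whether the counting used it is not given in the sources used here, so reads of the overlapping pairs cannot be told apart.

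The promoters of the called *HOXD* genes are shown because genes from both ends of the cluster and its middle were upregulated together. The RefSeq table (GRCh38.p14) matched 20 of the 39 members, among them *HOXD13*, *HOXD8*, and *HOXD1*, and did not match *HOXB3*, *HOXB9*, *HOXC12*, and *HOXD9*. Each sequence gives the 250 bases before the start site on the plus strand, 5′ to 3′, with CG dinucleotides in capitals, at chr2:176092471-176092720 (*HOXD13*), chr2:176129455-176129704 (*HOXD8*), and chr2:176188418-176188667 (*HOXD1*).
HOXD13: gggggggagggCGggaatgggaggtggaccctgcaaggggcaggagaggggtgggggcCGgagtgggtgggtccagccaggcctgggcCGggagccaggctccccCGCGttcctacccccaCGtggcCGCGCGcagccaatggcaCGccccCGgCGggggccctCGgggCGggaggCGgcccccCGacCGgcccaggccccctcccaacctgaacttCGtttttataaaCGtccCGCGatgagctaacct
HOXD8: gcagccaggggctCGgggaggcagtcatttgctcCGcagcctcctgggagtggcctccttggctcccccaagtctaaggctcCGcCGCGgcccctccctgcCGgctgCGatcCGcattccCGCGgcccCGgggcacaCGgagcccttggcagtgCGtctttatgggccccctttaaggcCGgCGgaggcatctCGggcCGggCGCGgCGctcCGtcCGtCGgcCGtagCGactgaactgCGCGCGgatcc
HOXD1: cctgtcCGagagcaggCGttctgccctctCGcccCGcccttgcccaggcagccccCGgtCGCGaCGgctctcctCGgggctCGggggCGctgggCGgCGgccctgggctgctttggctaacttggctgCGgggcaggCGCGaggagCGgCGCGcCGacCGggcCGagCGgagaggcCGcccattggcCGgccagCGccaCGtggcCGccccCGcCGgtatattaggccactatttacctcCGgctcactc

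These windows had a GC content of 74.0%, 72.4%, and 74.8%, against a median of 58.0% over 27305 genes. They held 21, 28, and 31 CG dinucleotides, against a median of 11. Over the 20 matched *HOX* genes the medians were 59.0% and 20.5, and *HOXA13*, which was not called, had 78.0% and 40. The ratio of observed to expected CG was 0.618, 0.857, and 0.888. The median was 0.556 over all genes and 0.888 over the 20 matched *HOX* genes, of which *HOXC4* and *HOXC5* were given the same window. *HOXD1* was about at the *HOX* median, and *HOXD13* and *HOXD8* were below it. The E-box CACGTG, the site bound by MYC and related proteins, was found in the windows of *HOXD13* and *HOXD1* and in 6.49% of all windows, but also in 5 of the *HOX* genes that were not called (7 of the 20 matched members, 35.0%). The TATA box (TATAAA, either strand) was found in *HOXD13*, in 4 of the 20 *HOX* windows, and in 11.1% of all windows. The joint HOX and PBX site TGATTNAT, which 2.59% of all windows held on either strand, was in none of these 3. A match is a description of letters and does not show binding.

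The 32 *HOX* genes that were not called had adjusted p values of 0.0858 to 0.983 in edgeR. Of the 11 genes with 0 counts in both untreated libraries, 8 were among them, and *HOXA9*, *HOXB8*, *HOXC5*, *HOXD10*, and *HOXD11* had counts only in treated BT-16 cells (40, 18, 18, 29, and 4). *HOXA9*, a gene known from leukemia, thus had 0, 40, 0, and 0 counts. In treated BT-16 cells no *HOX* gene was at 0 and 35 had at least 10 counts. In treated CHLA-266 cells 10 were at 0, and 6 of these had no count in either condition.

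The wider detection after treatment was not limited to *HOX* genes. Olfactory receptor genes, which act in the nose and served as a reference for stray reads, had more than 3 counts for 14.7% of 380 genes before and 66.6% after treatment of BT-16, and for 12.6% and 49.2% in the other line. For *HOX* genes, BT-16 gave shares of 46.2% and 97.4%, and CHLA-266 gave 48.7% and 71.8%. The summed level of the olfactory receptors was 12.2-fold and 8.06-fold that of untreated cells, while that of the *HOX* genes was 2.25-fold and 2.07-fold. Without the 4 leading genes, the other 35 *HOX* genes were at 6.16-fold and 4.05-fold. The 4 genes were picked as the highest in untreated cells, so part of this larger fold was fixed by the choice. No receptor was left out in the same way. Of 336 olfactory receptors tested, 27 (8.04%) were called higher and 0 lower in edgeR. Among the 7 called *HOX* genes, *HOXB9* and *HOXD8* lay above the 95th percentile of the olfactory receptors in both treated libraries (a level of 0.455 in BT-16 and 0.409 in CHLA-266), *HOXD9* only in BT-16, and the other 4 in neither. In the untreated libraries this percentile was lower (0.0595 in BT-16 and 0.0618 in CHLA-266). Above the percentile of their own library were 11 *HOX* genes before and 8 after treatment of BT-16, and 9 and 7 for CHLA-266. The part of stray reads in the *HOX* counts was not tested.

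**Figure D3:**
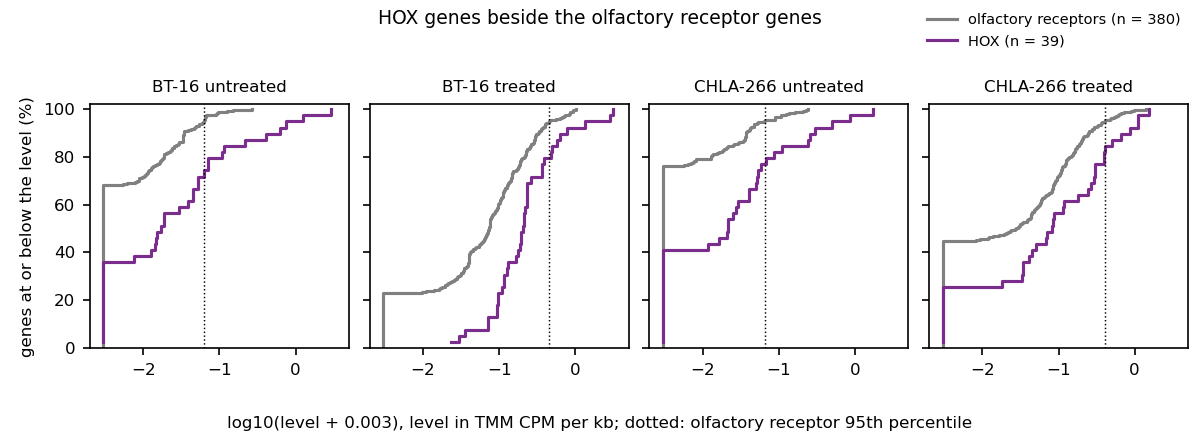
Cumulative share of genes (%) at or below a level (log10 of TMM CPM per kilobase plus 0.003) for 39 *HOX* genes (purple) and 380 olfactory receptor genes (grey) in each library, with the 95th percentile of the olfactory receptors dotted. Fewer genes of both families sit at 0 in treated cells, and 7 to 11 *HOX* genes lie right of the dotted line in each library.

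Of the genes next to the clusters, the homeobox gene *EVX1* beyond *HOXA13* had 0, 40, 0, and 36 counts. In treated cells it was 15.0-fold above the floor of 3 counts (adjusted p = 0.0143 in edgeR). Its counting intervals began at a log2 ratio of 3.63 in BT-16 and 3.46 in CHLA-266. *EVX2* beyond *HOXD13* had 0, 36, 12, and 10 counts and was not called (adjusted p = 0.394 in edgeR). *PRAC1* and *PRAC2*, which lie between *HOXB9* and *HOXB13*, had at most 6 counts. Of the 18 flanking genes, 4 were called higher (*EVX1*, *SKAP2*, *CALCOCO1*, and *CALCOCO2*) and 4 lower (*CBX5*, *ATP5MC2*, *LNPK*, and *HNRNPA3*), 22.2% each. Across all genes, 16.1% were called higher and 19.1% lower. *SKAP2* beside *HOXA* had 2661 to 4476 counts and rose by 0.77 on the log2 scale (adjusted p = 0.00636 in edgeR), and *CBX5* on the *HOXC4* side had 8366 to 34114 counts and fell by 1.60 (adjusted p = 0.000275 in edgeR). *SKAP1* and *TTLL6* beside *HOXB* were low as well, with at most 39 counts, so low counts were common near that cluster and not near every cluster.

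Within each line, the response was read from the log2 ratio of the treated to the untreated library, with an exact 95% interval that covers counting error only. In BT-16, the interval lay above 0 for 30 of 39 genes and below 0 for 1 (*HOXB4*), which is 76.9% above and 2.56% below, against 46.9% and 39.1% of all genes and 61.3% and 0.595% of the olfactory receptors. In CHLA-266, it lay above 0 for 19 and below 0 for 3 (*HOXA2*, *HOXA4*, and *HOXA6*), which is 48.7% above and 7.69% below, against 44% and 36.8% of all genes and 44% and 1.49% of the olfactory receptors. For 15 genes (38.5%) it was above 0 in both lines, against 34.8% of all genes, and for 9 (23.1%, against 29.6%) with halved counts, as would apply if both reads of each pair had been counted. The median over the 39 log2 ratios was 3.42 for BT-16 and 1.62 for CHLA-266, and that over the olfactory receptors 3.55 and 2.32. *HOXB4* went opposite ways, with a log2 ratio of -1.25 (-1.92 to -0.65) in BT-16 and 1.55 (0.99 to 2.17) in CHLA-266. *HOXA2*, a hindbrain gene with 8, 26, 12, and 0 counts, also did so. A difference in response between the lines cannot be tested with 1 library per line and condition.

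**Figure D4:**
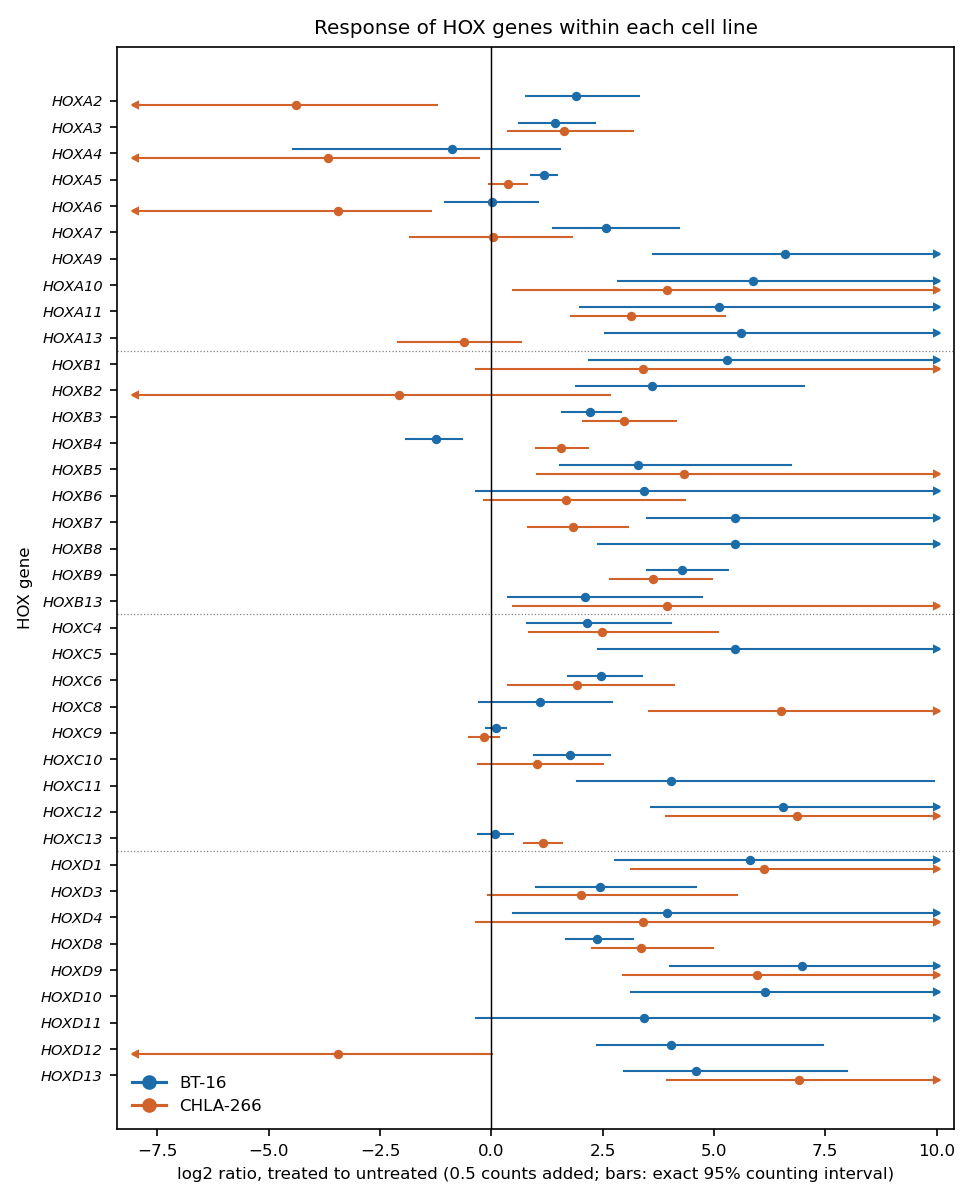
Log2 ratio of treated to untreated counts for 38 *HOX* genes within BT-16 (blue) and CHLA-266 (orange), with exact 95% counting intervals, arrows where an interval runs beyond the axis, and no point where both libraries had 0 counts. Most points lie right of 0, *HOXC9* lies near 0 in both lines, and *HOXB4* lies on opposite sides.

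Between the lines, none of the 39 *HOX* genes was called in edgeR with the treatment as a term, against 2.30% of all genes (1.46% higher and 0.836% lower in BT-16). The count was also 0 in DESeq2, in limma on the log2 values, and in each other alternative with all libraries. These alternatives included a model with the line as its only term, and their shares over all genes were not taken. In the main fit, 1 *HOX* gene had an unadjusted p under 0.05. That gene was *HOXC9*, at 4.78 and 5.16 CPM in untreated and treated BT-16 against 2.86 and 2.56 CPM in CHLA-266 cells. Its log2 difference was 0.88 (SE 0.41, adjusted p = 0.465 in edgeR). The median difference over the 39 genes was 0.97 toward BT-16, against 0.05 over all genes and 1.04 over the olfactory receptors. The tilt toward BT-16 was thus not particular to *HOX* genes. In untreated cells, 18 genes were higher in BT-16, 10 in CHLA-266, and 11 were at 0 in both, and in treated cells 30 were higher in BT-16 and 9 in CHLA-266. Of these, 13 were higher in BT-16 and 2 in CHLA-266 under both conditions. Shares over all genes were not taken for these counts.

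Some partners of HOX proteins were measured at far higher levels than the *HOX* genes themselves, and *PBX3* and *MEIS2* had levels of 55.6 and 35.5 in untreated BT-16 cells, against 2.87 for *HOXC9*. Of 9 TALE cofactor genes, 2 were upregulated and 2 downregulated after treatment (22.2% each, against 16.1% and 19.1% of all genes). *PKNOX2* had 8, 209, 6, and 47 counts (log2 fold change 4.38, SE 0.92, adjusted p = 0.0077 in edgeR). *MEIS2* was abundant with 29167, 13829, 26308, and 13761 counts and fell by 0.75 on the log2 scale (SE 0.16, adjusted p = 0.0082 in edgeR), and *PBX2* with 3479, 1806, 2934, and 1505 counts fell by 0.70 (SE 0.17, adjusted p = 0.0129 in edgeR). The most abundant PBX gene, *PBX3*, had 18819, 8517, 19834, and 12207 counts and was not called (adjusted p = 0.0598 in edgeR), but it was called lower with the line added to the model (adjusted p = 0.000582 in edgeR). In that model 3 of the 9 were called higher and 4 lower (17.9% and 23.7% of all genes). With upper-quartile normalization 2 were higher and 0 lower (24.1% and 10.5% of all genes). Leaving out 1 library ended the call of *PKNOX2* without treated BT-16 cells (adjusted p = 0.143 in edgeR) and that of *PBX2* without untreated BT-16 cells (0.0668). *PKNOX2* was thus low before treatment, and neither *PBX3* nor *MEIS2* was among the genes that rose.

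Of the proteins that hold *HOX* clusters active or silent, most called genes were lower after treatment. Among 11 trithorax and MLL activators, 7 were downregulated and 1 upregulated (63.6% and 9.09%, against 19.1% and 16.1% of all genes). *PSIP1*, the chromatin reader that tethers MLL complexes, had 30500, 6495, 29888, and 7429 counts and fell by 1.86 on the log2 scale (SE 0.18, adjusted p = 0.000198 in edgeR). *WDR5*, a shared core subunit, had 5835, 1661, 5101, and 2051 counts and fell by 1.30 (SE 0.19, adjusted p = 0.00149 in edgeR). *KDM6B*, which removes the Polycomb mark on histone H3, had 3241, 4047, 2348, and 3093 counts and rose by 0.61 (SE 0.18, adjusted p = 0.0307 in edgeR), but it was not called without treated BT-16 or untreated CHLA-266 cells (0.0838 and 0.174).

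Among 17 Polycomb repressors, 4 were downregulated and 1 upregulated (23.5% and 5.88%, against 19.1% and 16.1% of all genes). In this main fit the share called lower is thus close to the background. *EZH2*, the enzyme that writes the repressive mark, had 7322, 1013, 7528, and 1049 counts and fell by 2.60 on the log2 scale (SE 0.18, adjusted p = 1.96e-05 in edgeR). *RNF2*, the ubiquitin ligase of the other Polycomb complex, had 2398, 745, 2172, and 642 counts and fell by 1.47 (SE 0.19, adjusted p = 0.000864 in edgeR). *JARID2*, which guides the *EZH2* complex to its targets, had 1550, 2362, 1694, and 5036 counts and rose by 1.46 (SE 0.35, adjusted p = 0.0132 in edgeR). With the line added to the model, 7 of the 17 Polycomb genes were called lower, a larger share than the 23.7% of all genes. With upper-quartile normalization, 4 of 11 trithorax and 3 of 17 Polycomb genes were called lower, both larger shares than the 10.5% of all genes. The median log2 fold change of the Polycomb list then changed sign from -0.24 to 0.10.

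**Figure D5:**
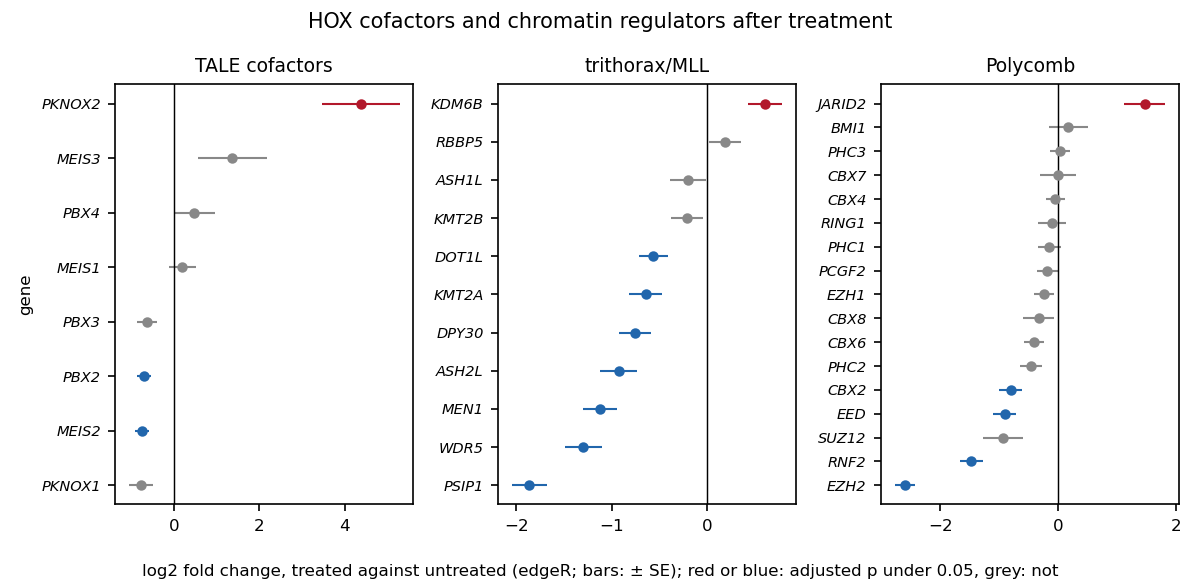
Log2 fold change (treated against untreated, edgeR, bars ± SE, 2 against 2 libraries) of 8 of the 9 TALE cofactor, 11 trithorax and MLL, and 17 Polycomb genes, with red for genes called higher, blue for genes called lower, and grey for genes not called. *PKNOX2* stands out to the right, and *EZH2* and *PSIP1* to the left.

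Of 17 genes of the retinoid pathway, which acts upstream of anterior *HOX* genes, 2 were upregulated and 1 downregulated (11.8% and 5.88%, below the 16.1% and 19.1% of all genes). *CYP26B1*, which breaks down retinoic acid, had 75, 716, 28, and 344 counts (log2 fold change 3.62, SE 0.55, adjusted p = 0.00169 in edgeR). *DHRS3*, which turns retinal back into retinol, had 2, 132, 8, and 24 counts (4.09, SE 1.19, adjusted p = 0.0286 in edgeR). *CRABP2*, which carries retinoic acid to the nucleus, had 546, 232, 441, and 169 counts and fell by 1.05 on the log2 scale (SE 0.34, adjusted p = 0.0405 in edgeR), a call made in only 6 of 14 alternatives. It was lost under each other scaling, with at least 10 counts in every library, in DESeq2 with the line in the model, and without untreated BT-16, untreated CHLA-266, or treated CHLA-266 cells (adjusted p of 0.0522 to 0.149). The *DHRS3* call was lost without untreated or treated BT-16 cells (adjusted p of 0.0789 and 0.410 in edgeR) and in limma on the VST values (0.0586). The receptors *RARA* and *RARG* had 429 to 570 and 3249 to 5966 counts and were not called.

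Transcription factors of the head, where *HOX* genes are silent, were also counted. Of 10 forebrain and midbrain factors, 4 were upregulated (40.0%, against 16.1% of all genes) and 0 downregulated in edgeR, and *OTX1* was called lower once the line was in the model. *SIX3* had 3, 72, 0, and 46 counts (log2 fold change 5.45, SE 1.37, adjusted p = 0.0163 in edgeR). Of 3 hindbrain regulators of *HOX* genes, 1 was upregulated, while *EGR2* with 59 to 118 counts and *GBX2* with 4 to 105 were not called. Of 5 ParaHox and caudal genes, *CDX1* had 0, 79, 0, and 4 counts. It was 15.7-fold above the floor of 3 counts (adjusted p = 0.0303 in edgeR), mostly through BT-16. Its counting interval began at a log2 ratio of 4.64 in BT-16 and at -0.35 in CHLA-266. The *CDX1* call was lost without either untreated library (adjusted p of 0.0623 and 0.0626 in edgeR) or without treated BT-16 cells (0.474), and in limma on the VST values (0.0926).

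Some markers of other cell types also differed between the conditions. For scale, 44.7% of all genes and 50% of the olfactory receptors were higher after treatment in both lines. The endothelial markers *PECAM1*, *CDH5*, and *VWF* summed to 0.715 to 0.928 CPM in untreated and 6.12 to 9.43 CPM in treated cells, with 3 of 3 higher in both lines. The 5 macrophage markers summed to 3.28 to 6.39 and 4.60 to 7.97 CPM with 2 of 5 higher in both lines and *CD68* at 0 in both treated libraries. The 5 fibroblast markers summed to 9.78 to 13.9 and 7.43 to 17.2 CPM with 3 of 5 higher in both lines. Of 7 markers of the other AT/RT subgroups, 6 were higher in both lines, and their sum was 5.39 to 8.09 CPM in untreated and 8.24 to 10.6 CPM in treated cells. Their part in the *HOX* result was not tested.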

How the data were processed

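RNA of untreated and treated BT-16 and CHLA-266 cells was sequenced from libraries of the SMART-Seq Stranded kit, and per the methods the authors trimmed the reads with Skewer, aligned them to hg38 with STAR after demultiplexing with bcl2fastq 2.20, and removed genes of the sex chromosomes and repeatedly counted genes. The deposited values were estimated counts of each symbol, not normalized. They were rounded, since 2 genes held 5 values that were not whole. The authors also deposited log2 values from the variance-stabilizing transformation (VST) of DESeq2. The annotation release and the strand setting of the counting are not given in the sources used here, and no column of per-sample values was left unused.

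Genes with a total of 0 (383 of 18449) were left out, and 18066 were tested with edgeR 4.0.16 in R 4.3.3 (quasi-likelihood test, TMM normalization with factors of 0.919 to 1.12, Benjamini-Hochberg adjustment over all tested genes, threshold of 0.05). In the main fits, the treatment was the only term when conditions were compared, and it stayed in the model when the lines were compared. For the lines, an alternative with all libraries and the fits without 1 library held the line as the only term. Libraries pair by their shared cell line, and over 12162 genes their deviations from the mean of each condition correlated at 0.368. An exact permutation test of 2 against 2 libraries cannot go below p = 0.333, so none was used, and the p values measure only the spread between these libraries. Levels are TMM CPM per kilobase of the exon union in GENCODE 44 (18344 symbols matched). Within-line ratios had 0.5 counts added and Clopper-Pearson 95% intervals. Lower bounds used 3 counts in each untreated library and took the treated counts as exact, so they leave out counting error in treated cells. Low counts were mostly even (28.2% to 36% of the *HOX* counts were odd), so both reads of a pair may have been counted and counting intervals may be too narrow. Alternatives were DESeq2 1.42.0, the cell line as a block in either tool, other scalings, filters on low counts, halved counts, limma 3.58.1 on the VST values, and each library left out in turn. The tests were checked on simulated counts, with changes placed only in genes with more reads than most *HOX* genes had. Calls at low counts were thus not covered by this check. Full values are given for called *HOX* genes (up to 3 per cluster, by adjusted p) and the highest member of each cluster, and for the 2 called genes of smallest adjusted p per direction of each other list. *HOXB4*, *HOXC13*, *HOXA2*, and the flanking genes were named after their values were seen. Some members of the lists are not reported here by name. The members and lists were chosen with earlier results of these data known.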

Additional observations from a re-analysis of the deposited data

Results flagged for a closer look

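For 2 *HOX* genes the lines moved in opposite directions with counting intervals on opposite sides of 0. *HOXB4* changed by a log2 ratio of -1.25 in BT-16 (86 and 30 counts) and 1.55 in CHLA-266 cells (36 and 90 counts), and both intervals stayed on their side of 0 with halved counts. *HOXA2* had a log2 ratio of 1.90 in BT-16 (8 and 26 counts) and -4.40 in CHLA-266 cells (12 and 0 counts), and with halved counts the CHLA-266 interval reached an upper limit of 0.01. The difference between the lines was not tested, since each line and condition had 1 library.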

How the results depend on the processing

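Of the *HOX* genes, 7 were called higher after treatment, and *HOXB9*, *HOXC12*, and *HOXD9* were called in all 13 alternatives that tested them. With the cell line as a replicate block the count was 6 in edgeR and 7 in DESeq2. It was 8 in DESeq2 without the block and in limma on the VST values, and 7 under the other scalings. Without 1 library, the calls of *HOXB3*, *HOXD1*, *HOXD8*, and *HOXD13* were lost in some fits, most of them without treated CHLA-266 cells. Genes outside the 7 (*HOXA9* or *HOXB7*) were gained in some of these fits. Only 6 *HOX* genes had at least 10 counts in every library, which left 1 call, *HOXB3*, with the other 6 called genes filtered out. The block ended the call of *HOXD1* in edgeR and that of *HOXA10* in DESeq2, and changed no other *HOX* call. *HOXC9* had a log2 fold change of -0.0239 with the block and -0.58 to 0.45 without 1 library, and *HOXB4* -0.80 to 0.94. The *HOXC9* ratio in CHLA-266 was 0.00627 with library totals. The median log2 fold change of all genes was 0.24 with TMM, 0.31 with DESeq2 size factors, 0.46 with library totals, and 0.59 with the upper quartile, and that of the *HOX* genes 2.74, 2.82, 2.99, and 3.10.

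Of 72 genes of the other lists, 12 were called higher and 14 lower. With at least 10 counts in every library 6 were higher, but this filter left genes such as *CDX1*, *PKNOX2*, and *SIX3* untested. Of the list genes, 7 were lower with the upper quartile and 9 with library totals. The calls over all genes moved too. They were 2253 higher in the first setting, where fewer genes were tested (2910 in the main fit). Lower were 1895 and 2353 in the other settings (3454 in the main fit). Without 1 library, 9 to 13 were higher and 9 to 17 lower, lowest without untreated BT-16 cells.

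At a level of at least 0.5, 4, 6, 2, and 5 *HOX* genes counted as expressed in untreated BT-16, treated BT-16, untreated CHLA-266, and treated CHLA-266 cells. At a level of 2 there was 1 in untreated BT-16 and 0 in either CHLA-266 library. Above the 95th percentile of olfactory receptors there were 11, 8, 9, and 7. Without division by length, the *HOXB* share of BT-16 was 14.04% before and 24.0% after treatment and that of treated CHLA-266 27.4%, and the *HOXC* share of treated BT-16 was 32.0%. The median ratio in BT-16 was 3.71 with library totals and 2.58 with halved counts.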
